A study of Mus musculus with 20 samples.

Results

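Protocadherins are the largest family of cadherin-like adhesion proteins in the mammalian brain, and their messages were followed through development of the mouse habenula, a paired structure above the thalamus with a medial and a lateral division. The members were all rows of the deposited count table of the developmental series whose gene symbol starts with Pcdh, which gave 70 of 37994 genes. Of these, 58 were clustered protocadherins (14 Pcdha or alpha rows, 22 Pcdhb or beta rows and 22 Pcdhg or gamma rows) and 12 were non-clustered. A second table, of left and right habenula, held 69 of them among 36104 genes and lacked Pcdhb1.

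Clustered protocadherins lie side by side in arrays. Alpha and gamma genes each join one variable exon, with its own promoter, to constant exons shared by the whole array, whereas each beta gene is a complete coding unit in a single exon. Neurons choose different combinations of these promoters, and the proteins bind copies of themselves on facing membranes, which is known to let a neuron's own branches avoid each other. Non-clustered protocadherins are single genes scattered over the genome, and their proteins act in cell sorting, axon growth and synapse formation.

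Single cells were measured in plates with Cel-seq2, a method that primes at the poly(A) tail and tags every captured transcript with a unique molecular identifier (UMI). The developmental series had 15 plates, all from Brn3a-tauLacZ mice, a line with a reporter at Brn3a (now called Pou4f1), which encodes a transcription factor of habenula neurons. It covered E11, E12, E13, E15 and E18 before birth, P4 and P7 after it, and adult mice; E12 had 1 plate and the other 7 stages had 2 each. The second set had 5 plates from C57BL/6 mice at E18, with 2 of the left habenula, 2 of the right and 1 of both sides. No source used here gives the genotype at the reporter gene, the number of animals behind a plate or which plates were sequenced together, so sequencing run and stage cannot be told apart.

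Wells with at least 1000 counts, at least 500 genes and at most 20% mitochondrial counts were taken as cells, which left 3729 cells in the series and 1082 in the second set. The plate is the replicate throughout, and p-values measure the spread between plates of a stage, which may be technical. Kept cells held between 758697 and 7760372 counts per plate in the series, and from 1849863 to 6586449 in the second set. Levels are given as CPM: the counts of a gene over all kept cells of a plate, per 1000000 counts of that plate. Fewer cells with a message and less message per cell cannot be told apart in such sums. The tissue label was checked by Pou4f1. In the second set, 46.2% of the kept cells of the plate of both sides had a count of it, and 73.7% to 81.0% on the left and right plates. In the series, 28.1% to 92.2% of the kept cells of a plate had a count of it. The lowest shares were on E18 plate 1 (28.1%), adult plate 1 (37.5%, with 56 cells) and E13 plate 2 (51.1%), and results are also given without these 3 plates, a choice made after seeing the data.

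Most alpha and gamma rows could not be read as separate genes. Except in Pcdhac2 (49.2% unspliced), Pcdhgc4 (0.311%) and Pcdhgc5 (0%), at least 78.0% of the deposited counts of a row were unspliced, that is, assigned to introns, and each row of an array held again the unspliced molecules of the rows downstream of it. The 14 alpha rows summed to 43640 unspliced UMIs, which came to 4731 when only the fullest row of each cell was counted. A molecule was thus listed up to 9.22 times on average. The 22 gamma rows summed to 90727, which came to 6637 in the same way, or 13.7 listings for each molecule. Neighbouring rows of either array were also compared in each of the 3729 cells. No cell had fewer unspliced UMIs in the upstream row than in the next one downstream, except between the 2 rows named Pcdha11. A plot of counts by row shows the staircase this makes.

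**Figure D1:**
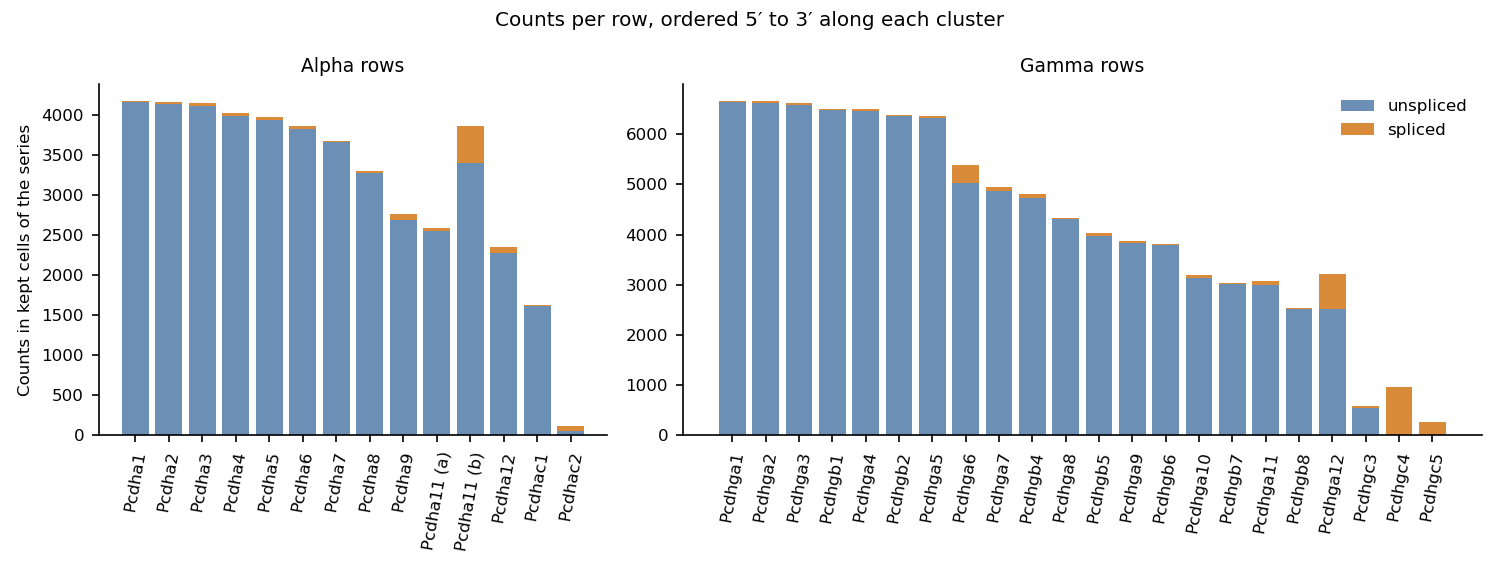
Counts in kept cells of the series for each alpha row (left) and gamma row (right), ordered from the 5′ to the 3′ end of the array, with unspliced counts in blue and spliced counts in orange; the 2 rows named Pcdha11 are marked a and b. Unspliced counts fall along each array from the first row, apart from a rise at the second Pcdha11 row (3398 unspliced UMIs, after 2553 in the first), while spliced counts are concentrated in a few rows such as Pcdhgc4, with 961, and Pcdhga12, with 710.

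The steps of that staircase show where along the arrays the unspliced molecules lay. In the alpha array, 37.5% of the unspliced UMIs of the first row (1559 of 4155) fell between the starts of Pcdhac1 and Pcdhac2, the C-type genes next to the constant exons. A further 15.9% lay between Pcdha12 and Pcdhac1 and 14.2% between Pcdha8 and Pcdha9. Single plates spread widely here, from 32.7% to 70.7% for the interval from Pcdhac1 to Pcdhac2 and from 10.3% to 26.6% for that from Pcdha12 to Pcdhac1. In the gamma array, 29.6% (1962 of 6637) lay between Pcdhga12 and Pcdhgc3, 19.4% between Pcdhga5 and Pcdhga6, and 9.96% between Pcdhgb6 and Pcdhga10. Single plates gave 22.2% to 36.9% for the interval from Pcdhga12 to Pcdhgc3 and 13.0% to 25.8% for that from Pcdhga5 to Pcdhga6. Some intervals within these arrays were close to empty, such as the 0.151% between Pcdhgb7 and Pcdhga11.

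Because of this overlap, the 10 clustered rows with the highest mean level (Pcdhga1, Pcdhga2, Pcdhga3, Pcdhgb1, Pcdhga4, Pcdhgb2, Pcdhga5, Pcdhga6, Pcdhga7 and Pcdhgb4, from 121 down to 88.7 CPM) are the upstream gamma rows and mostly repeat one another. The most upstream row of each array held the most unspliced molecules but almost none of the spliced ones. Pcdha1 had 10 spliced counts, beside 917 spliced UMIs over the alpha rows. Pcdhga1 had 14, beside 3017 over the gamma rows. Both rows thus read the unspliced molecules of an array and not its spliced messages. Pcdha1 held 77.5 and 63.8 CPM on the E11 plates and 76.0 and 79.9 CPM at P4. Pcdhga1 held 124 and 114 CPM at E11 and 84.5 and 104 CPM at P4. Their changes from E11 to P4, 0.21 ± 0.43 (log2 ± SE) for Pcdha1 and -0.27 ± 0.21 for Pcdhga1, did not pass the test (edgeR quasi-likelihood, adjusted p = 0.753 and 0.394).

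Across the 7 stages with 2 plates, 0 of 14 alpha rows and 0 of 22 gamma rows passed edgeR's quasi-likelihood F test at an adjusted p under 0.05, against 46.4% of all 17453 genes tested, and none of them had an unadjusted p under 0.05. DESeq2 called 0 alpha and 6 gamma rows in that test, where it called 56.2% of all genes, and edgeR called 8 gamma rows when the 3 plates named above were left out, where it called 54.7%. From P7 to adult edgeR called 0 gamma rows, but 13 of 22 had an unadjusted p under 0.05, as did 3607 of 17453 genes. The median log2 change of the 22 was 0.59. Rows made of unspliced counts share molecules and are not separate findings. Pcdhgc4 and Pcdhgc5, C-type genes chosen for description after their values were seen, had almost no unspliced counts, and no source used here says how reads in the constant exons were assigned among rows. Pcdhgc4 had 11.8 and 8.58 CPM at E11 and 15.8 and 14.1 CPM at P4 (0.62 ± 0.31, edgeR adjusted p = 0.163), and Pcdhgc5 had 2.70 and 5.72 CPM and then 3.73 and 3.99 CPM (-0.06 ± 0.67, adjusted p = 0.960). Neither passed the test. In spliced counts alone, 1 alpha and 6 gamma rows passed the filter on low counts, and Pcdhga6 was called (F test, adjusted p = 0.0170), where 47.4% of all genes were called. Its spliced level was 9.47 and 7.76 CPM at E11, 13.6 and 11.2 CPM at E13, 11.4 and 12.5 CPM at E15 and 21.5 and 6.78 CPM at E18. It then stood at 2.20 and 2.30 CPM at P4, 1.29 and 2.81 CPM at P7, and 7.91 and 2.19 CPM in the adult. All 4 plates of P4 and P7 thus lay below every embryonic plate, and the change from E11 to P4 was -1.87 on the log2 scale (adjusted p = 0.0487), in a comparison of spliced counts where 25.8% of all genes were called.

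Most of the tested beta protocadherins rose between E11 and P4. None of their deposited counts was unspliced, so the nesting of unspliced counts does not touch them. Pcdhb21 and Pcdhb22 overlap each other on the same strand, so their values are uncertain where they overlap, and no other beta row overlaps a member. All 22 lie within 3 long annotated genes of the same strand (Gm42416, Gm37013 and Gm37388). Beta genes are close relatives, however, and no source used here says how reads that fit several of them were counted, so values of single beta genes are uncertain where their sequences agree. Of the 22, Pcdhb1 (3 counts in the series) and Pcdhb2 (12 counts) failed the filter on low counts and 20 were tested.

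Summed over all 22 rows, beta messages stood at 55.3 and 53.1 CPM on the E11 plates, 67.2 CPM on the E12 plate, and 75.0 and 45.7 CPM at E13. They reached 91.7 and 110.6 CPM at E15 and 78.6 and 142 CPM at E18. The P4 plates held 201 and 199 CPM, the P7 plates 145 and 178 CPM, and the adult plates 194 and 117 CPM. Every postnatal plate was above every plate from E11 to E15, while E18 plate 2 overlapped the adult range. In cells with a Pou4f1 count the sums were 57.0 and 55.2 CPM at E11 and 204 and 202 CPM at P4, so the difference was as large within those cells. The kept cells of these plates, most of them positive for Pou4f1, fell in different clusters at the 2 stages: most of those at E11 lay in the clusters led by Crabp1 and Tfap2b and in intermediate progenitor-like cells, and most of those at P4 in medial habenula-like cells and the clusters led by Gm12130, Oprm1 and Cck, which held no E11 cell. Tested in those cells alone, 13 of 20 beta genes rose from E11 to P4, where 30.8% of all genes were called.

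**Figure D2:**
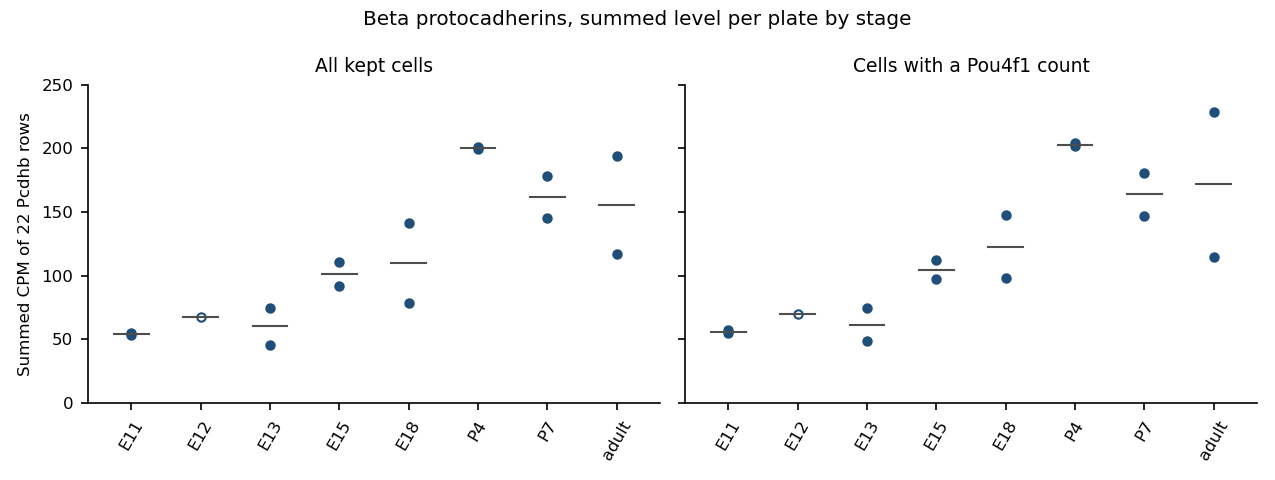
Summed CPM of the 22 beta rows per plate by stage, in all kept cells (left) and in cells with at least 1 Pou4f1 count (right); each point is a plate, the bar is the mean of a stage, and the open point is the single E12 plate. Both panels run from about 55 CPM at E11 to about 200 CPM at P4.

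From E11 to P4, 14 of the 20 tested beta genes rose and none fell at an adjusted p under 0.05, against 24.3% of all genes called (13.2% higher and 11.1% lower). E11 and P4 were chosen on these data and had the lowest and the highest mean beta sum of the stages (54.2 and 200 CPM). The median log2 change of the 20 was 2.03, beside 0.02 over all genes tested. This count and median describe the genes that passed the filter on low counts and are no independent support, since some passed through the postnatal plates: Pcdhb12 and Pcdhb13 had at most 6 and 5 counts on any embryonic plate of the series, against 22 and 37 and 18 and 11 counts at P4. The 5 largest called changes were those of Pcdhb12 (3.91 ± 1.06, adjusted p = 0.0212 by edgeR), Pcdhb13 (3.44 ± 1.06, 0.0392), Pcdhb14 (3.25 ± 0.78, 0.0124), Pcdhb15 (3.07 ± 0.86, 0.0246) and Pcdhb9 (2.90 ± 0.73, 0.0153). Pcdhb12 had 0.193 and 0.409 CPM at E11 and 3.73 and 5.68 CPM at P4. Pcdhb9 had 0.579 and 1.84 CPM at E11 and 7.97 and 9.51 CPM at P4. Values at E11 for these genes rest on 1 to 9 counts per plate, so the exact size of their change is poorly set.

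Better counted beta genes moved the same way with smaller changes. Pcdhb20 went from 3.48 and 4.49 CPM at E11 to 21.2 and 21.9 CPM at P4 (log2 change 2.5 ± 0.59, edgeR adjusted p = 0.0109). Pcdhb7 went from 9.27 and 4.90 CPM to 23.2 and 27.3 CPM (1.90 ± 0.52, 0.0216). The P4 plates lay above the E11 plates for each. Pcdhb17, at 10.2 and 8.17 CPM and then 22.1 and 23.6 CPM, was higher on both P4 plates but did not pass (1.38 ± 0.60, adjusted p = 0.115). The other beta genes that did not pass were Pcdhb4, Pcdhb5, Pcdhb8, Pcdhb10 and Pcdhb22, whose fitted changes ran from 0.73 for Pcdhb5 to 1.90 for Pcdhb10.

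**Figure D3:**
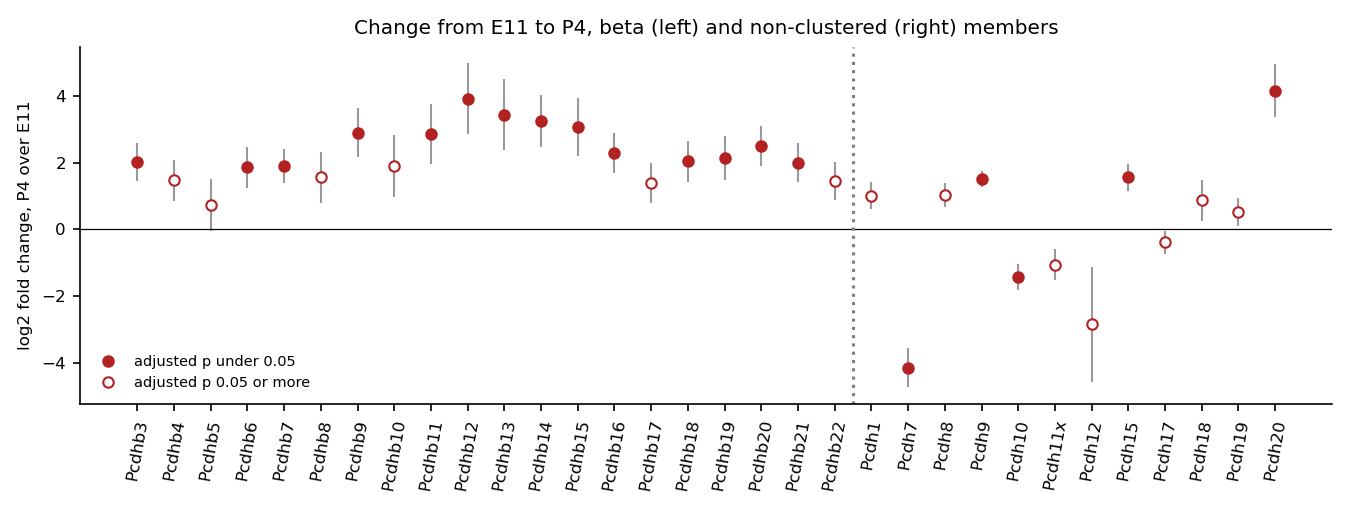
Fitted log2 change from E11 to P4 of the 20 tested beta genes (left of the dotted line) and the 12 non-clustered members (right), with SE as vertical lines; filled points have an edgeR adjusted p under 0.05. All 20 beta points lie above 0, while non-clustered points lie on both sides, from Pcdh7 at -4.14 to Pcdh20 at 4.16.

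Calls of single beta genes depended on having both plates of each stage. Leaving out any 1 of the 4 plates of E11 and P4 left 1 beta gene called, while the median beta change stayed between 2.04 and 2.31; the number of all genes called fell from 4245 to between 1535 and 1876 in the same fits. With only the plates of the 2 stages in the fit, 17 of 18 were called, against 58.3% of all genes in that fit, and without the 3 plates low in Pou4f1, 19 of 20, against 41.5%. Between neighbouring stages, Pcdhb9 alone among beta genes was called, with a rise from E18 (2.00 and 1.51 CPM) to P4 of 2.5 ± 0.79 (edgeR adjusted p = 0.0473), where 19.5% of all genes were called. That call was lost in 10 of 15 alternative settings. The E11 to P4 and E18 to P4 comparisons share the P4 plates. The F test over 7 stages called 11 of the 20 beta genes, against 46.4% of all genes, so that this count is close to the share over all genes.

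Per cell, both the share of cells with a beta message and the number of beta genes in a cell were higher at P4 than at E11. To compare cells of unequal depth, each was thinned to 5000 UMIs and shallower cells were left out. At that depth 21.1% and 21.6% of cells on the E11 plates had a beta UMI (284 and 301 cells), 32.7% and 36.5% at E15, 27.2% and 47.1% at E18, 50.0% and 56.1% at P4 (266 and 287 cells). The P7 plates had 47.0% and 48.8%, and the adult plates 48.3% and 38.9%. The mean number of distinct beta genes per thinned cell was 0.243 and 0.252 at E11 and 0.752 and 0.798 at P4. Before thinning, the P4 shares were 80.5% and 82.0%, against 41.7% and 37.1% at E11. Among cells that are not neural, 3.70% of microglia-like cells (1 of 27) had a beta UMI before thinning, at a median of 6898 UMIs, and 35.6% of the 146 vascular-like cells had one, at a median of 6593 UMIs. The share was 80.7% of medial habenula-like cells, at a median of 22646.5 UMIs. Thinned to the same depth, the shares were 0% of 19 microglia-like cells (exact 95% binomial interval up to 17.6%), 23.3% of 86 vascular-like cells and 50.2% of 582 medial habenula-like cells. The part of free RNA in these shares was not tested.

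In the Pou4f1-positive cells of P4 and P7, which numbered 1110, 187 had no beta UMI, 248 had 1 distinct beta gene, 257 had 2 and 181 had 3. The most seen in a cell was 8, in 4 cells. These numbers are limited by capture, so a beta gene without a UMI in a cell was not shown to be silent there.

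Beta messages were also summed over clusters of cells, made without any Pcdh row. Clusters were named only from marker lists and otherwise are given by their 3 leading genes. Some unnamed clusters had raised medial habenula markers: 7 of 11 in the cluster led by Gm12130, 5 in that led by Oprm1 and 4 in that led by Cck. Of the 8 lateral habenula markers they had 2, 2 and 3. The name medial habenula-like thus does not cover every cluster with such markers. Clusters of the same name were joined. Medial habenula-like cells thus came from clusters of 327, 172 and 153 cells, and oligodendrocyte lineage-like cells from clusters of 57 and 43. Lateral habenula-like cells were 1 cluster, named from 3 of 8 markers: Htr2c, Vgf and Gpr151. Of these, Htr2c alone was among its 10 leading genes, and 44.7% of its cells came from adult plate 2. Levels pool plates, with exact 95% Poisson intervals that cover counting error only. Medial habenula-like cells (652) held a beta sum of 176 CPM (169 to 183) and lateral habenula-like cells (38) held 213 CPM (180 to 250.3). Intermediate progenitor-like cells held 39.1 CPM (31.3 to 48.2) and progenitor-like cells 11.3 CPM (5.63 to 20.2). Medial habenula-like cells came only from plates of P4 and later. All intermediate progenitor-like cells, and all progenitor-like cells but 1 on each P4 plate, came from embryonic plates. Cell class and stage therefore cannot be told apart in these values. The cluster led by Crabp1, Onecut3 and Lin28a, mainly of the earliest plates, held 57.1 CPM (51.0 to 63.8). Oligodendrocyte lineage-like cells held 170 CPM (144 to 198), an interval that overlaps that of medial habenula-like cells.

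Non-clustered members went in opposite directions. In the F test over 7 stages, 11 of the 12 were called by edgeR, against 46.4% of all genes; the other, Pcdh19, had an adjusted p of 0.0510. From E11 to P4, Pcdh9, Pcdh15 and Pcdh20 rose and Pcdh7 and Pcdh10 fell. A plot of levels by stage gives all 12.

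**Figure D4:**
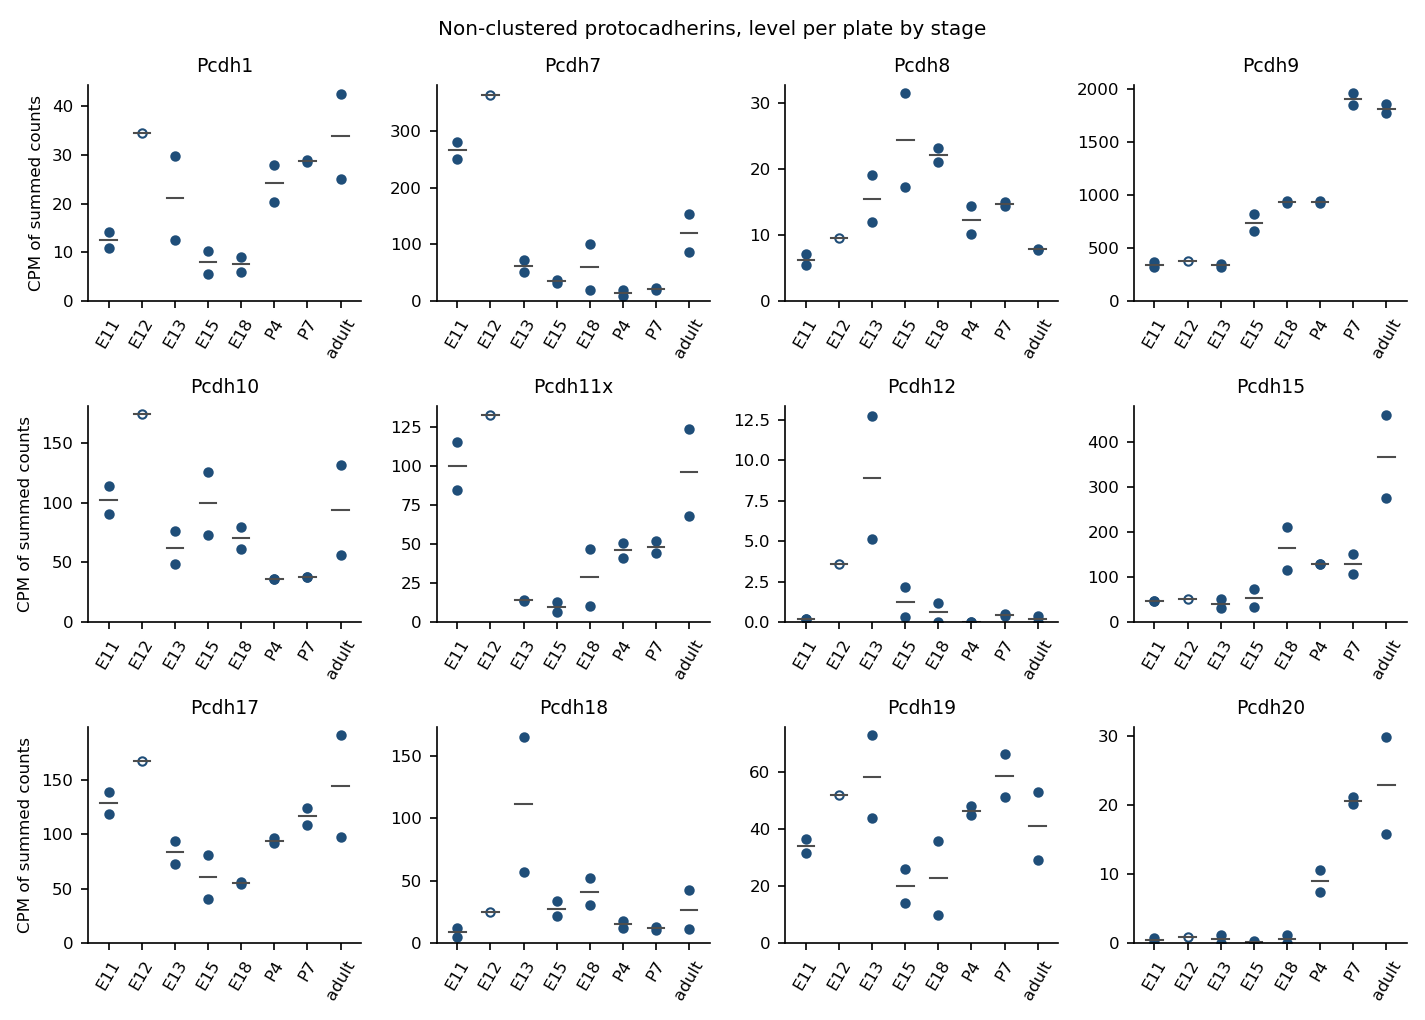
Level of each non-clustered member in CPM on each plate (points) by stage, with the mean of a stage as a bar, the single E12 plate as an open point and a separate linear scale from 0 in each panel. Pcdh7 is highest at E11 and E12, Pcdh9 climbs in steps to at least 1770.1 CPM at P7 and in the adult, and Pcdh20 is at most 1.20 CPM on the plates from E11 to E18.

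Pcdh7, Pcdh9 and Pcdh20 were called from E11 to P4 in the most settings (15, 15 and 14 of 15 alternatives), and the 200 bases upstream of their RefSeq start sites (GRCm38.p6) are shown because these genes moved in opposite directions. They are written 5′ to 3′ on the gene's strand, with capitals marking the CCAAT box, a short element of many promoters. Pcdh7 is shown at chr5:57717881-57718080 (+), Pcdh9 at chr14:93890680-93890879 (-) and Pcdh20 at chr14:88471397-88471596 (-).
Pcdh7: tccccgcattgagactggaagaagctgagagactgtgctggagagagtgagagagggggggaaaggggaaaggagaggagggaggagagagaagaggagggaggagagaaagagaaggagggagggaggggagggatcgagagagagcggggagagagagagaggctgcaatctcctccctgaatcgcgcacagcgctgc
Pcdh9: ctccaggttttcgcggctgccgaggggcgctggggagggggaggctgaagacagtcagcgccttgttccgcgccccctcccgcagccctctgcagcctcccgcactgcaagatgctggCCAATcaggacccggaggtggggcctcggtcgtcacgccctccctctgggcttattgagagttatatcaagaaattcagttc
Pcdh20: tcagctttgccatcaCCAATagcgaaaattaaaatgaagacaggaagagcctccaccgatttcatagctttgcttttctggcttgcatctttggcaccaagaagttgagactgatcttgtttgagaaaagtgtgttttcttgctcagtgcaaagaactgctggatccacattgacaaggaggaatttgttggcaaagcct
G and C made up 60% of these bases for Pcdh7, 64% for Pcdh9 and 42.5% for Pcdh20. The box, CCAAT or ATTGG on either strand within 250 bases upstream, was found in 8 of the 9 non-clustered members in the promoter table and not in Pcdh7, and in 33.8% of 32851 promoters. Pcdh10, which also fell from E11 to P4, had it, and no link of the box with the direction of change was tested. Members were counted by their first listed promoter, while the 32851 hold every listed one, so these shares are not counted alike. The GC box, GGGCGG or CCGCCC, was in 4 of the 9 and in 32.7% of all. A match describes the letters only and does not show that a factor binds.

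Pcdh7, a delta-1 protocadherin (chromosome 5, 57717967 to 58133230, plus strand; this annotated start lies inside the window shown), had the steepest fall among called members. Of its counts 81.1% were unspliced, and its row overlaps annotated genes on both strands. Its level was 281 and 251 CPM on the E11 plates, 365 CPM on the E12 plate, 72.8 and 51.0 CPM at E13, and 32.6 and 37.2 CPM at E15. At E18 the plates were apart, at 101 and 20.3 CPM. It was 9.33 and 19.0 CPM at P4, 19.8 and 22.7 CPM at P7, and 154 and 86.7 CPM in the adult. The E11 and P4 plates did not overlap, with a log2 change of -4.14 ± 0.58 (edgeR adjusted p = 0.000683), which held in all 15 alternative settings. It was called lower from E18 to P4 (-1.86 ± 0.55, 0.0383), which was lost in 6 of 15 settings, among them the one without the 3 plates.

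The higher adult level of Pcdh7 came with more markers of the oligodendrocyte lineage and of astrocytes. From P7 to the adult, where 3.58% of all genes were called, Pcdh7 was the only beta or non-clustered member called (2.36 ± 0.55, edgeR adjusted p = 0.0420). The call was lost in 5 of 15 settings: in Pou4f1-positive cells, with the replicate block (2.33, adjusted p = 0.05245), and without adult plate 1 (1.89, 0.211), P7 plate 1 (2.26, 0.280) or P7 plate 2 (2.42, 0.2595). Oligodendrocyte lineage-like cells made up 35.7% and 18.7% of the adult plates and at most 1.84% of any earlier plate. The summed level of the 10 oligodendrocyte lineage markers was 9942 and 2986 CPM in the adult, with all 10 above 0, against 28.5 to 358 CPM on earlier plates. The 8 astrocyte markers, all above 0, summed to 1147 and 677 CPM in the adult, against 89.0 to 136 CPM at P4 and P7 and 1435 CPM on E18 plate 1. A cluster of 33 cells led by Agt, Ntsr2 and Etnppl, in which 7 of the astrocyte markers were raised but which stayed unnamed, made up 8.93% and 7.89% of the adult plates and at most 0.307% of any earlier plate. Pcdh7 stood at 515 CPM in those cells (469.7 to 563), at 820 CPM in the Agt cluster and at 6.90 CPM in medial habenula-like cells. In Pou4f1-positive cells its adult level was 72.0 and 22.2 CPM, against 12.7 and 8.28 CPM at P7. The change fitted in those cells, 1.76 on the log2 scale, was in the same direction and did not pass (edgeR adjusted p = 0.0810). The 11 dissociation-response markers also differed in sum, with 1174 and 1449 CPM at P7 and 2482 and 3107 CPM in the adult, and the median mitochondrial share was 11.9% on adult plate 1 and 4.76% to 6.56% on the other plates of the series. The part of these cells and markers in the adult level was not tested.

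Pcdh9, another delta-1 gene (chromosome 14, 93013410 to 93890679, minus strand), was higher at later stages in steps. It read 322 and 364 CPM at E11, 377 CPM at E12, 353 and 322 CPM at E13, 656 and 821 CPM at E15, 923 and 939 CPM at E18, and 924 and 946 CPM at P4. At P7 it read 1851 and 1959 CPM and in the adult 1770.1 and 1854 CPM. These values fall in 4 levels that do not overlap, E11 to E13, E15, E18 to P4, and P7 to adult, and plates of a stage lie close together. The change from E11 to P4 was 1.51 ± 0.24 (edgeR adjusted p = 0.00122) and held in all 15 settings. The step from P4 to P7 (1.01 ± 0.23) had an unadjusted p of 0.00114 but an adjusted p of 0.988, in a comparison where 1 gene in all was called (0.00573%); with the plates of those stages alone it was called (adjusted p = 0.00136). Over this step the cluster led by Cck, Gad1 and Pde11a went from 10.5% and 3.42% to 20.2% and 23.5% of the cells of a plate, and the one led by Oprm1, Col25a1 and Gpr151 from 12.5% and 11.2% to 23.0% and 25.2%. Both clusters are high in Pcdh9, and their part in the step was not tested. Of its counts 93.8% were unspliced, and the spliced counts gave nearly the same change from E11 to P4 (1.47, adjusted p = 0.00141), from 18.4 and 22.5 CPM to 61.8 and 47.9 CPM.

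Pcdh9 was uneven among clusters. It stood at 3291 CPM in the cluster led by Cck, Gad1 and Pde11a and at 3194 CPM in the one led by Oprm1, Col25a1 and Gpr151, against 936 CPM in medial habenula-like cells and 64.0 CPM in microglia-like cells. Over plates with at least 20 cells of a cluster, the first spanned 2196 to 3672 CPM, the second 2425 to 3618 CPM and medial habenula-like cells 586 to 1765 CPM. The ranges of the first pair overlapped, and both lay above that of medial habenula-like cells. Both unnamed clusters also had raised medial habenula markers, so these values do not set medial against other cells. Oligodendrocyte lineage-like cells, whose share was highest on the adult plates, held 3716 CPM. Their part in the adult level of Pcdh9 was not tested.

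Pcdh20, a gene with little intron sequence (chromosome 14, 88464743 to 88471396, minus strand), was higher after birth than before it in the series. It had 0.773 and 0.204 CPM at E11, 0.842 CPM at E12, 1.14 and 0 CPM at E13, 0 and 0.297 CPM at E15 and 1.20 and 0 CPM at E18. It then had 10.5 and 7.36 CPM at P4, 20.1 and 21.1 CPM at P7 and 15.8 and 29.8 CPM in the adult. Every postnatal plate was above every embryonic one of the series. The change was 4.16 ± 0.79 from E11 to P4 (edgeR adjusted p = 0.00372), called in 14 of 15 settings, and 3.76 ± 0.88 from E18 to P4 (0.0153), called in 12 of 15. The embryonic plates of the series held 0 to 4 counts, so these fitted sizes are loosely set. Pcdh20 passed the filter on low counts through the postnatal plates, where it is high, so its calls are no independent support. In the second set at E18 it had 1.62 to 5.91 CPM, so it was present before birth there, up to a level near that of the lower P4 plate. By cluster it stood at 32.4 CPM in the one led by Oprm1, 29.5 CPM in the one led by Cck, 15.3 CPM in medial habenula-like cells, and at 39.5 CPM in oligodendrocyte lineage-like cells.

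Pcdh15, a partner of Cdh23 in the tip links of hair cells (chromosome 10, 73099342 to 74649737, plus strand), had 45.8 and 46.6 CPM at E11, 51.2 CPM at E12, 31.2 and 50.5 CPM at E13 and 32.6 and 73.5 CPM at E15. It had 212 and 116 CPM at E18, 129 and 130 CPM at P4, 151 and 106 CPM at P7 and 459 and 274 CPM in the adult. Plates from E18 on were all above those before it. The change from E11 to P4 was 1.55 ± 0.40 (edgeR adjusted p = 0.0170) and was lost in 5 of 15 settings: in Pou4f1-positive cells (1.37, adjusted p = 0.109) and without any 1 of the 4 plates of E11 and P4. It stood at 1580.4 CPM in oligodendrocyte lineage-like cells, 735 CPM in lateral habenula-like cells and 96.1 CPM in medial habenula-like cells. Its row overlaps 7 annotated genes, 4 of them on the other strand, and 88.9% of its counts were unspliced.

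Pcdh10, a delta-2 protocadherin (chromosome 3, 45378398 to 45435623, plus strand), fell. It had 91.0 and 114 CPM at E11, 175 CPM at E12, 76.7 and 48.3 CPM at E13, 73.3 and 126 CPM at E15 and 79.4 and 61.0 CPM at E18. It then had 36.3 and 36.0 CPM at P4, 38.0 and 37.7 CPM at P7 and 132 and 56.1 CPM in the adult. The P4 and P7 plates lay below all others. The change from E11 to P4 was -1.44 ± 0.39 (edgeR adjusted p = 0.0206) and was lost in 5 of 15 settings: in spliced counts (-1.24, 0.0513) and without any 1 of the 4 plates of E11 and P4 (highest adjusted p = 0.130). Pcdh10 was high in lateral habenula-like cells, at 361 CPM (318 to 409), and low in medial habenula-like cells, at 19.0 CPM (16.8 to 21.3). The 38 lateral habenula-like cells came from plates with fewer than 20 each. They were named from 3 of 8 markers, so the contrast rests on a small cluster with few lateral markers.

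The remaining delta members moved at other times. Pcdh11x, the X-linked delta-1 gene, dropped from 84.9 and 116 CPM at E11 and 133 CPM at E12 to 13.6 and 14.3 CPM at E13, a change of -2.99 ± 0.53 (edgeR adjusted p = 0.0239) in a comparison where 1.45% of all genes were called. It had 6.51 and 13.1 CPM at E15, 47.1 and 10.5 CPM at E18, 41.2 and 50.9 CPM at P4, 44.5 and 51.7 CPM at P7 and 124 and 68.0 CPM in the adult. The drop was as large without the 3 plates (-3.01) and in Pou4f1-positive cells (-2.87), and was lost without E11 plate 1, E11 plate 2 or E13 plate 2, which left 1 plate in a group. Pcdh1, also of the delta-1 group, had 5.99 and 9.04 CPM at E18 and 28.0 and 20.2 CPM at P4, a rise of 1.94 ± 0.47 (edgeR adjusted p = 0.0175). That call was lost in 4 of 15 settings: with the plates of those stages only, and without E18 plate 1, P4 plate 1 or P4 plate 2 (highest adjusted p = 0.118). It had 10.8 and 14.1 CPM at E11, 34.6 CPM at E12, 12.5 and 29.7 CPM at E13, 10.3 and 5.65 CPM at E15, 28.9 and 28.5 CPM at P7 and 25.05 and 42.6 CPM in the adult, and was at 99.8 CPM in vascular-like cells.

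Among delta-2 genes, Pcdh18 rose from 12.0 and 5.11 CPM at E11 to 56.9 and 166 CPM at E13 (3.53 ± 0.64, edgeR adjusted p = 0.0244). Vascular-like cells, where it stood at 280 CPM (253 to 309.5), made up 18.2% of E13 plate 2 and at most 1.29% of the E11 plates, and progenitor-like cells held 151 CPM. The call was lost in 5 of 15 settings: without E13 plate 2 (2.58, adjusted p = 0.210), E11 plate 1 (4.24, 0.119) or E11 plate 2 (3.05, 0.271), with the plates of those stages only (3.58, 0.0676), and in Pou4f1-positive cells (3.06, 0.0653). Without the 3 plates low in Pou4f1 it was 2.59 (0.0187). At later stages Pcdh18 had 10.7 to 51.9 CPM. Pcdh8, known in synapse remodelling, had 5.41 and 7.15 CPM at E11, 31.5 and 17.2 CPM at E15 and 7.91 and 7.75 CPM in the adult, so its highest plates were in the middle of the series (F test, adjusted p = 0.0118). Pcdh17 had 119 to 139 CPM at E11, 167 CPM at E12, 72.3 to 94.3 CPM at E13, 40.2 to 80.9 CPM at E15, 54.3 to 56.5 CPM at E18, 91.9 to 96.7 CPM at P4, 108 to 125 CPM at P7 and 97.7 to 192 CPM in the adult, so that its lowest plates were at E15 and E18 (F test, adjusted p = 0.0324, lost in 11 of 24 settings). Pcdh19 had 9.80 to 72.8 CPM over the series, and 140 CPM in the Oprm1 cluster against 21.7 CPM in medial habenula-like cells.

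Pcdh12, an endothelial protocadherin, was found mainly in vascular-like cells. It had 5.11 and 12.7 CPM at E13, 3.59 CPM at E12 and at most 2.17 CPM on any other series plate, and had no count on E18 plate 2, both P4 plates and adult plate 1. Vascular-like cells held 43.4 CPM (33.1 to 55.9), and no other cluster held more than 2.22 CPM (1 count). E13 plate 2, the plate with the most Pcdh12, also had the highest summed level of the 10 vascular markers, 1353 CPM, and without it the F test was lost (adjusted p = 0.0648). The vascular-like class joined clusters led by Flt1, Acta2 and Col1a1, and its part in the plate differences was not tested. Of the Flt1 cluster 60.3% came from adult plate 2, and of the Acta2 cluster 46.8% came from E13 plate 2. E18 plate 2, with the next highest marker sum (1185 CPM) and 9.09% vascular-like cells, had no Pcdh12 count, and the adult plates, with 10.7% and 14.6% vascular-like cells, had 0 and 0.398 CPM.

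**Figure D5:**
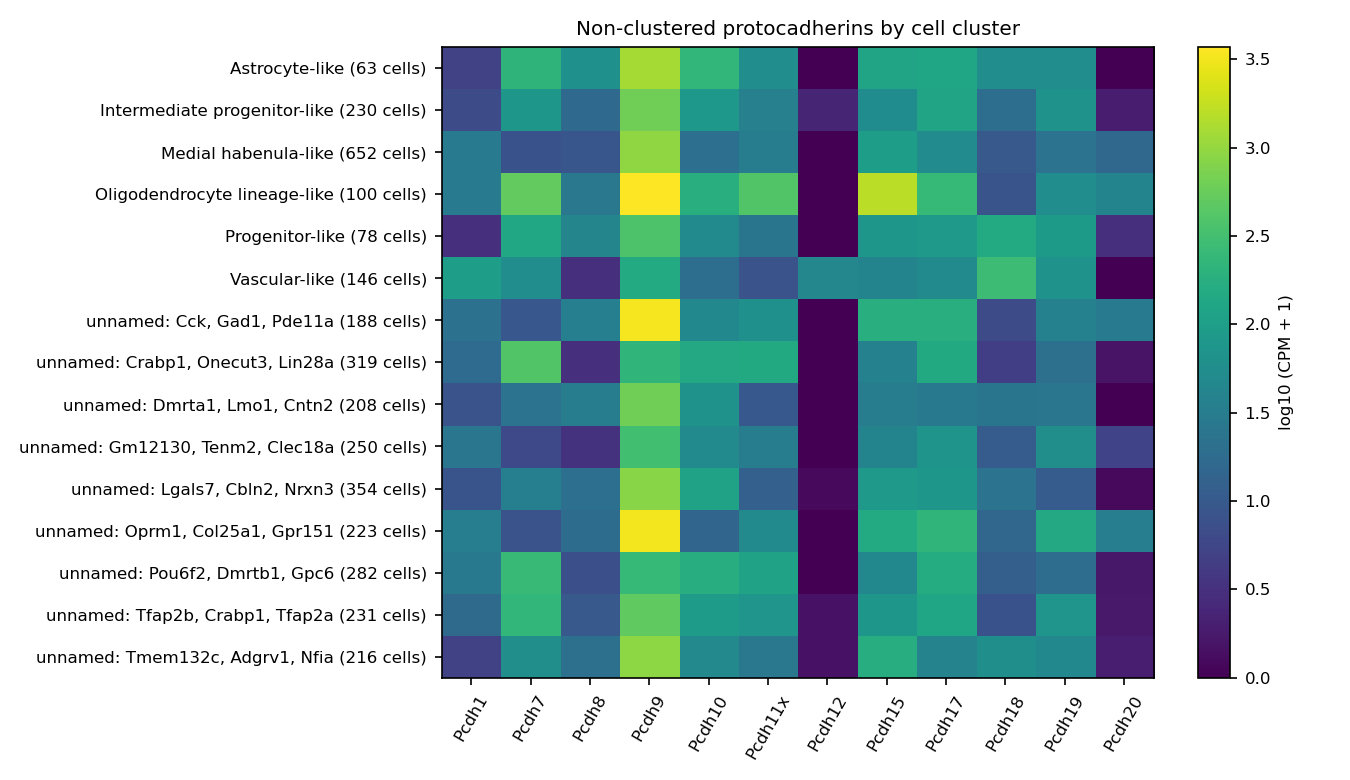
Level of each non-clustered member, as the log10 of CPM plus 1, in each named class or unnamed cluster of at least 50 cells. Plates are pooled, clusters of the same name are joined into 1 class, and unnamed clusters are given by their 3 leading genes. Pcdh9 is high in most rows, Pcdh12 is highest in vascular-like cells, and Pcdh15 is highest in oligodendrocyte lineage-like cells.

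Between E13 and E15 (0.0917% of all genes called), E15 and E18 (0.195%) and P4 and P7, no beta or non-clustered member was called by edgeR. At an unadjusted p under 0.05 there were 9, 3 and 2 of 32, against 12.5%, 17.2% and 2.71% of all genes, and DESeq2 called 1 in each, against 2.55%, 3.8% and 0.126%. Other edgeR calls between E18 and P4 appeared when the 3 plates were left out, where 17.4% of all genes were called: Pcdh11x (2.24, adjusted p = 0.0133) and Pcdh19 (2.35, 0.00633) rose, and Pcdhb9 and Pcdh7 were no longer called. In that fit E13, E18 and the adult have 1 plate each, which is assumed to vary like the other stages.

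No difference between the left and right habenula at E18 was detected in any member, in a comparison of 2 plates against 2 that called no gene at all and so does not show that the sides are alike. edgeR called 0 of 29 beta and non-clustered members, 0 of 15489 genes (0%), and DESeq2 called 0 of the members and 0.00646% of all genes (1 gene). Beta sums were 134 and 142 CPM on the left plates and 153 and 153 CPM on the right ones. At an unadjusted p under 0.05 there were 2 members, against 1.18% of all genes. Pcdh11x had 85.2 and 107 CPM on the left and 53.6 and 51.1 CPM on the right, so the sides did not overlap (right minus left -0.88 ± 0.20, edgeR adjusted p = 0.9999). Left plate 2, with the 107 CPM, held 54 kept cells, against 283 on left plate 1 and 279 and 133 on the right plates. Pcdh10 had 170 and 157 CPM on the left and 131 and 119 CPM on the right (-0.41 ± 0.18, edgeR adjusted p = 0.9999), again with no overlap. The left plates also held more red blood cell message, with a summed marker level of 19048 and 17219 CPM against 3410 and 265 CPM; its part in these values was not tested.

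Known partners of the family were counted from a list of 36 genes. From E11 to P4, 11 were called by edgeR, 6 higher and 5 lower, with a median log2 change of -0.21, where 24.3% of all genes were called, a share near that of the list. Of 12 genes that act on the choice or silencing of clustered promoters, 2 rose: Dnmt3a, a DNA methyltransferase (1.93 ± 0.23, adjusted p = 0.000293), and Stag2, a cohesin subunit (1.03 ± 0.22, 0.00657). Ctcf, which loops enhancers to these promoters, had -0.44 ± 0.21 and did not pass. Of 10 signalling partners, the receptor kinase Ret rose (2.16 ± 0.47), and Set (-2.0 ± 0.23), the phosphatase subunit Ppp1ca (-1.05 ± 0.25) and Axin1 (-0.71 ± 0.21) fell. Of 7 genes of the WAVE complex, an actin regulator bound by some delta-2 members, Nckap1 rose (0.63 ± 0.19) and Brk1 fell (-0.61 ± 0.15). Of 7 adhesion partners, Cdh23 (4.26 ± 0.55) and Nlgn1 (1.14 ± 0.37) rose and Cdh2 fell (-2.13 ± 0.25). Other cadherins named Cdh and a number gave 11 calls among 19 tested, 7 higher and 4 lower, with a median of 0.09, beside 14 of 20 for beta and 5 of 12 for non-clustered protocadherins and 24.3% of all genes. Differences between these lists were not tested.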

How the data were processed

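The authors deposited tables of total, spliced and unspliced transcripts per gene and well, whose unit is expected counts: UMI counts corrected for UMI collisions, with no scaling between wells; the correction was found from the values. Undoing the correction gave whole UMIs for 100% of values (within 1e-06), against 46.1% whole as deposited in the series total. Trim Galore, STAR 2.5.3a and mm10 are named in the submitters' processing notes; the counting program, the annotation and the use of strand are not given in these sources. Wells are named by plate, so barcodes shared between plates were not counted.

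Deposited values of kept cells were summed per plate, without 92 spike-in rows, rounded to whole numbers and tested with edgeR 4.0.16 (filterByExpr, TMM, glmQLFit, glmQLFTest) under R 4.3.3. One fit held the 14 plates of the 7 stages with replicates; the E12 plate had no replicate and stayed out. P-values were adjusted over all genes tested by the Benjamini-Hochberg method, with 0.05 as the threshold. A test on plain counts had been planned, and sums of expected counts took its place. The SE is the log2 change divided by the square root of F. The script was tested on simulated data. Alternatives were DESeq2 1.42.0, no TMM scaling, no filter, other cell filters, whole UMIs, spliced counts, Pou4f1-positive cells, only the plates compared, a replicate block and leaving out plates. Replicate numbers come from the labels and did not pair the plates (r from -0.33 to 0.22 over 21 pairs of stages); for left and right, with 1 pair of groups, r was 0.23.

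Cells of the series were clustered with scanpy 1.11.5 (10000 counts per cell, 2000 variable genes without Pcdh rows, 30 components, 15 neighbours, Leiden resolution 1). A cluster was named from at least 3 markers at 2-fold or more, seen in at least 20% of its cells. At least 1 had to be in its top 10 genes, with no other cell type list having more there. The list also needed the most markers past both limits, or 2 or more, and the most, in the top 10. The dissociation-response and general habenula lists gave no names. Several clusters stayed unnamed; no doublet caller was run. Gene positions are from GENCODE M21 (GRCm38, the same assembly as mm10); promoters are from a RefSeq table of GRCm38.p6, in which 9 of the 12 non-clustered members were matched.

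All non-clustered members are named; of the clustered ones, the 10 with the highest mean level and the called ones (the 5 largest where over 10 were called), and partners where called, at most 6 each way. The members and lists were chosen with earlier results of these data known. E11 and P4 were compared because the plates of each matched most closely, a choice that rests on these data. They also had the lowest and the highest mean beta sum of the stages (54.2 and 200 CPM). The count over beta and non-clustered members was chosen after the nesting of alpha and gamma rows was seen.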

Additional observations from a re-analysis of the deposited data

How the results depend on the processing

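Counts of beta and non-clustered members called moved with several choices, and no called change reversed direction. The share of all genes called is given, here or above, for only some of these settings. Counts without that share show how the calls moved and are not results about the members. The F test gave 22, between 11 and 25 when 1 plate was left out, with 11 without either E11, either P4 or the second P7 plate. E11 to P4 gave 19, and 3 (without E11 plate 2) or 4 (without E11 plate 1, P4 plate 1 or P4 plate 2) with 1 plate left out, where fewer samples were fitted; it gave 27 with the 3 plates low in Pou4f1 left out and 27 with the plates of the 2 stages only. The replicate block gave 15 for the F test, 17 for E11 to P4, 2 for E18 to P4 (4 in the main analysis) and 0 for P7 to adult (1); it changed no other count. Without the filter on low counts there were 4 in E11 to E13 (2), 4 in E13 to E15 (0), 2 in E15 to E18 (0), 11 in E18 to P4 and 3 in P7 to adult. DESeq2 gave 1 in each of E13 to E15, E15 to E18 and P4 to P7, where it called 2.55%, 3.8% and 0.126% of all genes. It gave 2 in P7 to adult. With only the plates compared there were 0 in E18 to P4 and 2 in P4 to P7, and Pou4f1-positive cells gave 0 in P7 to adult. Leaving out 1 plate gave 0 to 3 in E11 to E13, 0 to 2 in E15 to E18 (2 without E18 plate 2), 0 to 4 in E18 to P4 (0 without either P4 plate), 0 to 3 in P7 to adult (3 without adult plate 2), and 0 to 0 in E13 to E15, P4 to P7 and left against right. Apart from left-out plates, the cause of these shifts was not tested. Without TMM scaling the median of all genes moved to 0.16 from E11 to E13, -0.10 from E13 to E15, 0.20 from E15 to E18 and -0.30 from E18 to P4 (log2). With 2 plates per stage, low counts of single beta genes, shared plates between comparisons and unknown handling of reads that fit several genes limit what single genes can show.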

Other observations

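Levels of Pcdh17 and Pcdh19, among other non-clustered members, did not overlap at E18 between the Brn3a-tauLacZ series and the C57BL/6 set, which were deposited in separate tables, so that line, set, preparation and cell make-up cannot be told apart and no test was made. The summed vascular markers were 524 and 1185 CPM on the E18 plates of the series and 13.5 to 46.3 CPM in the second set, and the dissociation-response markers 827 and 2092 CPM against 405 to 647 CPM. Pcdh17 had 54.3 and 56.5 CPM in the series and 138 to 312 CPM in the second set. Pcdh19 had 35.9 and 9.80 CPM against 52.5 to 151 CPM. Pcdh7 overlapped, with 101 and 20.3 CPM against 90.7 to 176 CPM. Beta sums, at 78.6 and 142 CPM against 134 to 155 CPM, overlapped. The alpha and gamma rows of the second set showed the same nesting. Counted by the fullest row of each cell, 22546 unspliced alpha UMIs came to 2505 and 43283 gamma UMIs came to 3173.

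Pcdh17 and Pcdh19 were also unlike between clusters. Lateral habenula-like cells held 316 CPM of Pcdh17 (276 to 361) and 199 CPM of Pcdh19 (167 to 235), against 52.3 CPM and 21.7 CPM in medial habenula-like cells. The cluster led by Oprm1, Col25a1 and Gpr151 held 218 CPM of Pcdh17 and, over the 4 plates with at least 20 of its cells, 126 to 177 CPM of Pcdh19, while medial habenula-like cells spanned 13.3 to 40.7 CPM over 5 plates. Pcdh8 was at 60.1 CPM in astrocyte-like cells (44.0 to 80.1) and 41.0 CPM in progenitor-like cells (29.3 to 55.9), against 7.9 CPM in medial habenula-like cells.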
